A study of Mus musculus with 12 samples.

Results

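The genes described here write, copy and remove the methyl mark on cytosine in DNA: the methyltransferases Dnmt1, Dnmt3a and Dnmt3b, their partners Dnmt3l and Uhrf1, the dioxygenases Tet1, Tet2 and Tet3, and the glycosylase Tdg. The rule names these 9 genes, and they were chosen with earlier results of these data known. A count of them beside the share of all genes is thus a description. A gene was read from a probe set, the group of probes for a transcript, that names it and no other gene, and 8 of the 9 had exactly 1 such probe set, out of 22180 genes with at least 1 on the array. Tdg is named on 2 probe sets, each together with a Tdg pseudogene, so it has no value of its own here. The 8 genes were all above the array's 30th percentile on all 12 arrays. Dnmt3l lay below the array median on all 12, and the other 7 above it on all 12.

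The cells were mouse embryonic fibroblasts of embryonic day 13.5 on a C57Bl/6 -129X1/SvJ background, and all of them carried a doxycycline-inducible cassette for Oct4, Klf4, Sox2 and c-Myc at Col1a1 (Col1a1::tetOP-OKSM) together with the transactivator it needs (R26-M2rtTA). A retroviral hairpin targeted either Chaf1a, which encodes the large subunit of the histone chaperone CAF-1, or Renilla luciferase as the control, and every group received doxycycline, for 3 or 6 days, in medium with serum and LIF. The 4 groups are thus day 3 control, day 3 knockdown, day 6 control and day 6 knockdown, with 3 arrays each. Uninduced cells were not analysed here. The labels do not say how many hairpins were used or whether replicates were separate cultures, so a p-value measures only the spread between these arrays. Each array reads a whole culture, in which fewer cells of a type and less RNA per cell cannot be told apart.

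DNA methylation in mammals sits mostly on the cytosine of CpG dinucleotides and is known for holding genes silent through cell division. After replication Uhrf1 binds the half-methylated CpG and recruits Dnmt1, which methylates the new strand, while Dnmt3a and Dnmt3b methylate unmarked CpGs and Dnmt3l, itself without catalytic activity, stimulates them. The Tet enzymes oxidise 5-methylcytosine, and Tdg excises the further oxidised bases so that base excision repair can restore cytosine. In reprogramming to pluripotency, fibroblast methylation at pluripotency genes has to be lost, and Tet1, Dnmt3b and Dnmt3l are known as genes that embryonic stem cells express strongly.

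Chaf1a itself did not pass the test between hairpins: its log2 intensity was 7.42 to 7.72 under the control hairpin and 7.18 to 7.35 under its own at day 3 (adjusted p = 0.726), and 7.06 to 7.31 against 7.04 to 7.16 at day 6 (adjusted p = 0.999). In limma its unadjusted p at day 3 was 0.00981, and 0% of all genes passed between hairpins at that day. The day 3 groups did not overlap, with knockdown lower, as was so for 5.59% of all genes. Of 13 fibroblast markers 12 were kept by the filter on low values, Lum being the exception. The fibroblast markers had a mean gene-centred log2 value of 0.39 in day 6 control replicate 1 and 0.31 in day 6 knockdown replicate 1, against −0.14 to 0.03 on the other 10 arrays. The summed intensity of 10 macrophage and leukocyte markers was 748 to 864 on day 3 arrays and 451 to 508 on day 6 arrays. The defining gene Ptprc was below the filter. Of the 9 tested, 1 fell with time in control cells (Cd68, −1.19) and 2 in knockdown cells (Cd68, −1.23, and Itgam, −0.50). Over all genes tested 10.6% fell and 6.99% rose with time in control cells, and 10.5% and 7.46% in knockdown cells. Cd68 had the highest mean log2 value of the 9, 8.39, and so weighs most in the sum. Under each hairpin 2 of the 9 log2 fold changes were above 0. Of 9 neural and muscle markers, summed 742 to 883 at day 3 and 534 to 610 at day 6, Nefl and Tubb3 fell under both hairpins (−1.54 and −0.97 in control cells). In control cells 5 of the 9 log2 fold changes were above 0, with a median of 0.01. In knockdown cells 1 of the 9 was, with a median of −0.14. Of 7 endothelial markers tested, Kdr and Cdh5 rose under both (1.00 and 0.40 in control cells) and 0 fell, with the defining gene Pecam1 at 0.00 in control cells. Tek, with the highest mean log2 value of the 7, 9.99, stood at −0.16 in control and −0.19 in knockdown cells and did not pass. Under each hairpin 5 of the 7 log2 fold changes were above 0, with a median of 0.14 in control and 0.03 in knockdown cells. One day 3 knockdown array, replicate 2, stood apart in 8 interferon-stimulated genes, with a mean gene-centred log2 value of 1.41 against −0.25 to 0.00 on the other 11 arrays. Without it the same 4 genes passed with time in knockdown cells, and 0 of 8 passed between hairpins at day 3.

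Between day 3 and day 6, in control cells Tet1, Tet3 and Dnmt3a rose and Dnmt1 and Uhrf1 fell, so that 3 of the 8 genes rose, 2 fell and 3 did not pass the test. Over all 17860 genes tested, 6.99% rose and 10.6% fell in that comparison. In knockdown cells Tet1, Dnmt3b, Tet3 and Dnmt3a rose and 0 fell, which is 4 of 8, beside 7.46% of all genes higher and 10.5% lower. With the replicate number as a block 4 of 8 passed under each hairpin, beside 18.9% and 19.6% of all genes. The median log2 fold change of the 8 genes was 0.20 in control and 0.27 in knockdown cells, where that of all genes was 0.01 in both. The single markers Cd68, Nefl, Tubb3, Kdr and Cdh5 and the S phase genes described below also differed between the days. Their part in these changes was not tested.

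**Figure D1:**
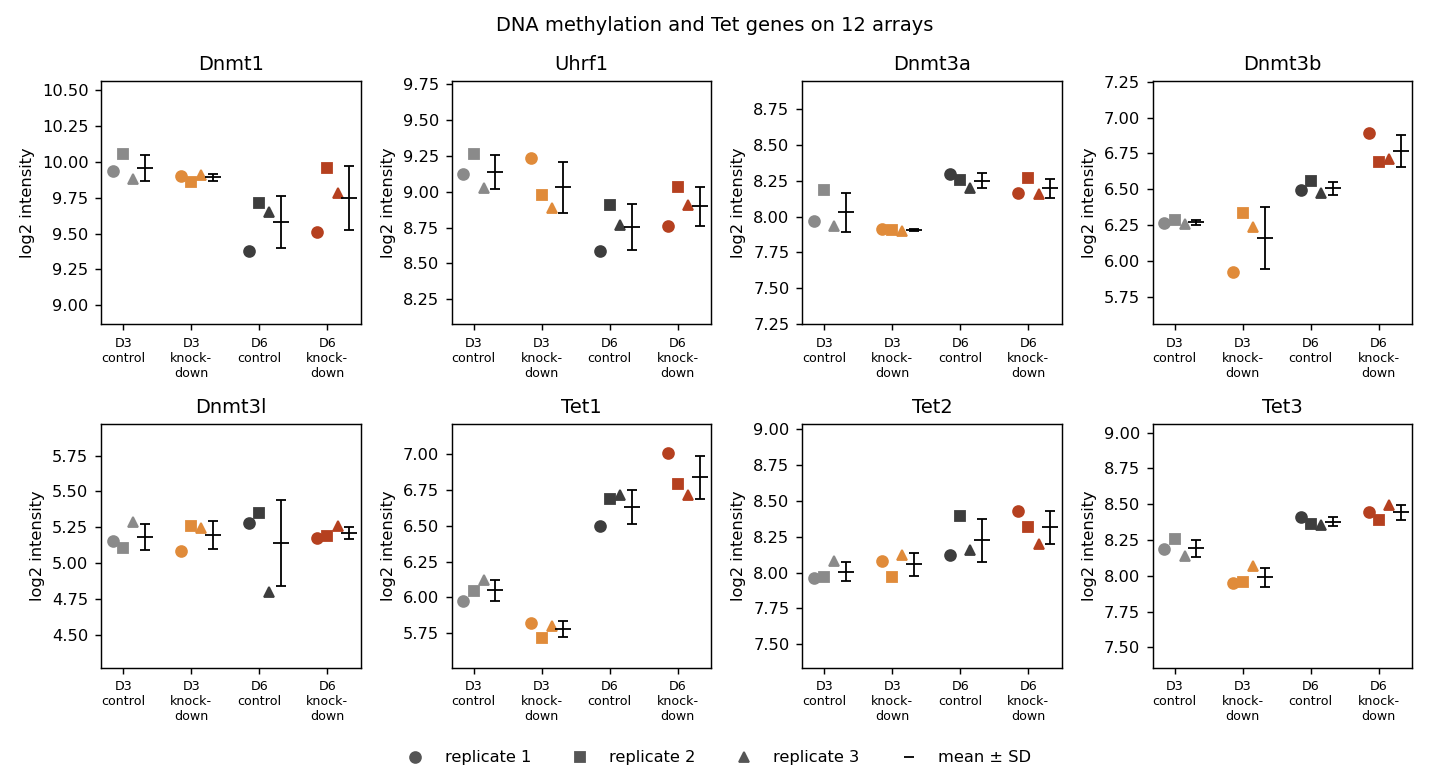
Log2 intensity of the 8 genes with a probe set of their own on each of 12 arrays, by group (D3 and D6 are day 3 and day 6), with replicates as circles, squares and triangles and the mean ± SD (n = 3) beside them. Every panel spans the same range of log2 units, and the widest separation is that of Tet1, from 5.71 to 6.12 at day 3 and from 6.50 to 7.01 at day 6.

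Tet1 changed the most. Its probe set (17241512) read 5.98, 6.05 and 6.12 in day 3 controls and 6.50, 6.69 and 6.72 in day 6 controls. In knockdown arrays it read 5.82, 5.71 and 5.80 at day 3 and 7.01, 6.79 and 6.72 at day 6. All 6 day 6 arrays thus lay above all 6 day 3 arrays. Tet1 rose 1.50-fold in control cells (0.59 on the log2 scale, SE 0.08, adjusted p = 6.58e-04) and 2.08-fold in knockdown cells (1.06, SE 0.08, adjusted p = 9.47e-06). It passed in each of the 18 alternatives run for either hairpin, with log2 fold changes between 0.54 and 0.65 in control and between 0.98 and 1.13 in knockdown cells. From the lowest group mean to the highest the order was day 3 knockdown, day 3 control, day 6 control and day 6 knockdown, and no neighbours in that order overlapped, the last pair by a margin of 0.00277.

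Tet3, an enzyme also known for acting on the paternal genome after fertilisation, followed the same order of group means. Its probe set (17468157) read 8.18, 8.25 and 8.14 in day 3 controls and 8.41, 8.36 and 8.35 in day 6 controls. Under the Chaf1a hairpin it read 7.95, 7.95 and 8.07 at day 3 and 8.45, 8.39 and 8.49 at day 6. The 2 day 6 groups overlapped, and every other pair of groups was separate. Tet3 rose 1.37-fold in knockdown cells (log2 fold change 0.45, SE 0.06, adjusted p = 2.98e-04), and passed in each of the 18 alternatives there. In control cells it rose 1.14-fold (log2 fold change 0.19, SE 0.06, adjusted p = 0.0494). That call lies at the threshold: with the replicate number as a block the same difference had an adjusted p of 0.0690, and with control arrays left out it held only without day 3 control replicate 2, the adjusted p reaching 0.225 without replicate 3 of both days and the log2 fold change running from 0.16 to 0.22. It was also lost with no filter (adjusted p = 0.0648), with every probe set tested (0.0521) and with only the 2 groups compared (0.0879).

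Tet2, the third Tet enzyme and a frequent target of mutation in blood cancers, did not pass. Its probe set (17410492) read 7.96, 7.97 and 8.08 in day 3 controls and 8.12, 8.40 and 8.16 in day 6 controls, with 8.08, 7.97 and 8.13 and then 8.43, 8.32 and 8.20 in knockdown arrays. The day 6 arrays lay above the day 3 arrays under both hairpins. The log2 fold change was 0.22 in control (95% interval 0.03 to 0.41, adjusted p = 0.101) and 0.26 in knockdown cells (95% interval 0.07 to 0.44, adjusted p = 0.0556). It passed with renewed quantile normalization under both hairpins (0.26 and 0.29, adjusted p = 0.0494 and 0.0332), and in knockdown cells with a stricter filter (adjusted p = 0.0426), a variance trend (adjusted p = 0.0424) or without day 6 knockdown replicate 3 (0.32, adjusted p = 0.0392). Groups that separate in this way were common, at 16% of all genes higher in control and 15.4% higher in knockdown cells, and 5 of the 8 genes did so under each hairpin.

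Among the de novo enzymes Dnmt3b had the steepest rise, in knockdown cells. Its probe set (17377963) read 6.27, 6.29 and 6.25 in day 3 controls and 6.49, 6.56 and 6.47 in day 6 controls. In knockdown arrays it read 5.92, 6.33 and 6.23 at day 3 and 6.89, 6.69 and 6.71 at day 6. Dnmt3b rose 1.52-fold in knockdown cells (log2 fold change 0.60, SE 0.09, adjusted p = 9.84e-04) and passed in each of the 18 alternatives, between 0.42, without replicate 1 of both days, and 0.72, without replicate 2 of both days. In control cells the log2 fold change was 0.24 (95% interval 0.03 to 0.44, adjusted p = 0.108), without overlap between days. It passed there with array weights (adjusted p = 0.0361) and with only the 2 groups compared (adjusted p = 0.0333).

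Dnmt3a, the other catalytic de novo enzyme, rose under both hairpins by small amounts. Its probe set (17273652) read 7.97, 8.19 and 7.93 in day 3 controls and 8.30, 8.25 and 8.20 in day 6 controls. Under the Chaf1a hairpin it read 7.91, 7.91 and 7.90 at day 3 and 8.16, 8.27 and 8.16 at day 6. Day 3 control replicate 2 was the highest day 3 array, and it lay higher than 2 of the day 6 knockdown arrays. The rise was 1.22-fold in knockdown cells (log2 fold change 0.29, SE 0.07, adjusted p = 0.0143) and 1.17-fold in control cells (log2 fold change 0.22, SE 0.07, adjusted p = 0.0499). The control value lies at the threshold, and with arrays left out it held only without day 3 control replicate 2 (0.30) or without replicate 2 of both days, while without replicate 1 of both days it was 0.16 (adjusted p = 0.288). It was also lost with no filter (adjusted p = 0.0626), with every probe set tested (0.0521) and with only the 2 groups compared (0.110). The knockdown call was lost without day 6 knockdown replicate 2 (0.25, adjusted p = 0.0616) and without replicate 1, 2 or 3 of both days (0.31, 0.25 and 0.31, with adjusted p = 0.0579, 0.116 and 0.0690).

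Dnmt3l, the cofactor without catalytic activity, lay between the array's 30th percentile and its median on all 12 arrays and did not pass in any comparison. Its probe set (17234763) read from 5.11 to 5.29 in day 3 controls, and under the Chaf1a hairpin from 5.08 to 5.26 at day 3 and from 5.18 to 5.26 at day 6. Day 6 control replicate 3 read 4.80, the lowest of the 12, and the other day 6 controls 5.28 and 5.35. All 4 groups overlapped, and the log2 fold change with time was −0.04 in control (95% interval −0.30 to 0.22) and 0.02 in knockdown cells (95% interval −0.24 to 0.27). The sign of these small differences turned when arrays or replicate numbers were left out, from −0.18 to 0.18 in control and from −0.04 to 0.06 in knockdown cells.

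The sequences before the start sites of the 2 genes with the steepest rise in knockdown cells, and of Dnmt3l, are shown because CpG is the substrate of these enzymes and the genes differ in how many they carry. They come from RefSeq on GRCm38.p6, are given 5′ to 3′ on the gene's strand, and stop where the annotated gene begins, with each CpG in capitals. Tet1 is at chr10:62887470-62887574 (minus strand), Dnmt3b at chr2:153649199-153649410 (plus strand) and the first of 3 Dnmt3l start sites at chr10:78042037-78042286 (plus strand).
Tet1: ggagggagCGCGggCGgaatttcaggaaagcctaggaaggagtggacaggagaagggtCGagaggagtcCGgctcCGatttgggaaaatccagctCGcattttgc
Dnmt3b: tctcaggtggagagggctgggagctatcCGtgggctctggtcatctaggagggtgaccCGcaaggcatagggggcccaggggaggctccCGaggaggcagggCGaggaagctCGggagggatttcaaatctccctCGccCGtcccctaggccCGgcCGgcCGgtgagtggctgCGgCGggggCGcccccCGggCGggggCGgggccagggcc
Dnmt3l: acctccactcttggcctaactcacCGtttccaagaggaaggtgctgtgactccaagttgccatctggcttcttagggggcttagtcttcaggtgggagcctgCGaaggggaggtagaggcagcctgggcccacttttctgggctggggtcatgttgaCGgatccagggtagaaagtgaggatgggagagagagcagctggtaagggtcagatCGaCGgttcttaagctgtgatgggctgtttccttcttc
These stretches hold 7 CpGs in 105 bases for Tet1, 16 in 212 bases for Dnmt3b and 5 in 250 bases for Dnmt3l. Over the full 250 bases before a start site the counts were 15 for Tet1, 21 for Dnmt3b, 51 for Tet2, 17 for Tet3 and 19 for Tdg, and 5, 4 and 3 for the 3 start sites of Dnmt3l. They were 38, 40 and 15 at the 3 start sites of Dnmt3a, 2, 7 and 26 at those of Dnmt1, and 10 and 30 at the pair of Uhrf1 start sites. The median over all 32851 windows in the table was 6, so all 3 Dnmt3l windows and 1 Dnmt1 window lay below it and the other windows of these genes above it. Methylation of these CpGs was not analysed here.

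The maintenance pair fell together in control cells. Dnmt1 (probe set 17524535) read 9.94, 10.06 and 9.88 in day 3 controls and 9.38, 9.72 and 9.65 in day 6 controls. Uhrf1 (probe set 17338747) read 9.12, 9.26 and 9.03 and then 8.58, 8.91 and 8.77. Neither gene's days overlapped, whereas 19.3% of all genes were lower without overlap, and 2 of the 8 genes were. Dnmt1 fell by 0.38 on the log2 scale (SE 0.11, adjusted p = 0.0331) and Uhrf1 by 0.39 (SE 0.11, adjusted p = 0.0300), the latter 1.31-fold. Day 6 control replicate 1, the array highest in fibroblast markers (0.39), was the lowest of the 12 for both. Without it the log2 fold changes were −0.27 for Dnmt1 (adjusted p = 0.140) and −0.30 for Uhrf1 (adjusted p = 0.127), and neither passed.

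Other arrays also carried these 2 calls. With arrays left out, Dnmt1 passed only without day 6 control replicate 2, and its log2 fold change ran from −0.45 to −0.27, with an adjusted p of at least 0.0515 in the settings that lost it. Uhrf1 passed without day 6 control replicate 2 or without day 3 control replicate 3, and ran from −0.46 to −0.30 with adjusted p up to 0.177. Both calls were also lost with renewed quantile normalization, at −0.33 each (adjusted p = 0.0662 and 0.0545). The direction held in every one of these settings.

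In knockdown cells neither gene passed. Dnmt1 read 9.91, 9.86 and 9.91 at day 3 and 9.51, 9.96 and 9.78 at day 6, a log2 fold change of −0.14 (95% interval −0.38 to 0.10, adjusted p = 0.435). Uhrf1 read 9.23, 8.98 and 8.89 and then 8.76, 9.03 and 8.90, a log2 fold change of −0.13 (95% interval −0.37 to 0.10, adjusted p = 0.456), with the days overlapping for both genes. The fall in control cells and its absence from the calls in knockdown cells are not shown to differ: the change from day 3 to day 6 was higher in knockdown cells by 0.24 for Dnmt1 and 0.25 for Uhrf1, each with an adjusted p of 0.990.

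Dnmt1 and Uhrf1 are known to be expressed with DNA replication, and genes of S phase and mitosis were lower at day 6 as well. Of 20 such genes listed, 18 were tested. In control cells 9 fell and 0 rose, beside 10.6% and 6.99% of all genes. In knockdown cells 5 fell and 0 rose, beside 10.5% and 7.46% of all genes. With arrays left out 4 (without replicate 1 of both days) to 10 fell in control cells. In knockdown cells it was 2 to 4, with 2 without day 3 knockdown replicate 1, without replicate 1 or 2 of both days, or with only the 2 groups compared. Rrm2, a subunit of ribonucleotide reductase, was among them in every setting and fell by 0.88 in control (adjusted p = 6.62e-05) and by 0.57 in knockdown cells (adjusted p = 0.00112). The mean gene-centred log2 value of the 18 genes was 0.21, 0.22 and 0.11 in day 3 controls and −0.37, −0.09 and −0.19 in day 6 controls. In knockdown arrays it was 0.28, 0.04 and 0.06 at day 3 and −0.16, −0.03 and −0.07 at day 6. Day 6 control replicate 1, the lowest array for Dnmt1 and Uhrf1, was also the lowest for this list, and the part of the list in the fall of the 2 genes was not tested.

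**Figure D2:**
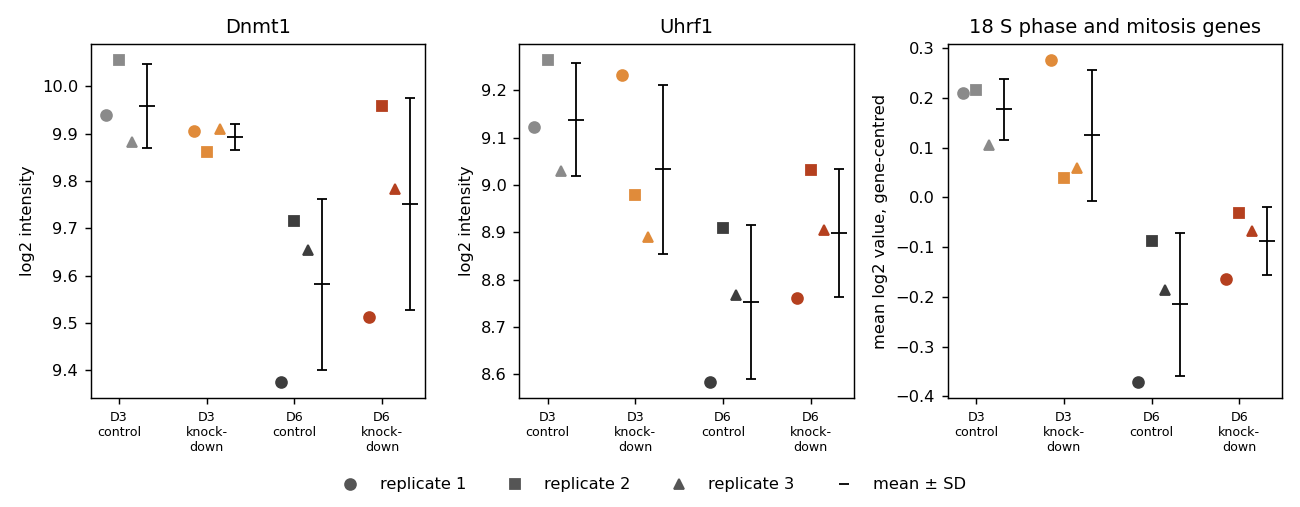
Log2 intensity of Dnmt1 and Uhrf1, and the mean gene-centred log2 value of 18 S phase and mitosis genes, on each array by group, with replicates as circles, squares and triangles and the mean ± SD (n = 3) beside them. Day 6 control replicate 1 is the lowest point in all 3 panels, at 9.38, 8.58 and −0.37.

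The start sites of this pair were searched for letters bound by E2F, the factor family of S phase genes, because the 2 genes fell together. The letters were TTTGGCGC, TTTCCCGC, TTTGCCGC and TTTCGCGC on either strand, and CCAAT on either strand, within 250 bases before a start site, and an E2F and a CCAAT match can share at most 1 end letter. The letters were chosen with these sequences in view. Every E2F string searched holds a CpG. The 2 windows with an E2F match hold 26 and 30 CpGs, beside a median of 6 over all windows. Windows of like CpG content were not compared, so the share of all windows is not a like background. An E2F match was found in 2 of the 16 windows of the 9 genes, at the third of 3 Dnmt1 start sites and the second of 2 Uhrf1 start sites, beside 1.86% of all windows. Shown 5′ to 3′ on the gene's strand with the match in capitals, from RefSeq on GRCm38.p6, they lie at chr9:20952824-20952853 (minus strand), 219 bases before the start site, and at chr17:56304117-56304146 (plus strand), 185 bases before it.
Dnmt1: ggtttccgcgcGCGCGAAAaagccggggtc
Uhrf1: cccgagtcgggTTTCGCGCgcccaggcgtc
CCAAT was found in 6 of the 16 windows, among them those 2, beside 33.9% of all windows. A match describes these letters and does not show a bound site.

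Between hairpins, 0 of the 8 genes passed at either day. At day 3 all 17860 genes stayed short of the threshold (0% called), and at day 6 0.0392% were higher and 0% lower. At an unadjusted p of 0.05 there were 2 of the 8 genes at day 3, beside 6.01% of all genes, and 2 at day 6, beside 4.44%. At day 3, 6 of the 8 log2 fold changes were below 0, with a median of −0.11 beside −0.01 over all genes, and at day 6, 7 of 8 were above 0, with a median of 0.12 beside −0.01. Of the 18 S phase and mitosis genes, 17 were below 0 at day 3 and 17 above 0 at day 6. Of the 12 fibroblast markers tested, 7 were below 0 at day 3 and 1 above 0 at day 6. The knockdown effects at the 2 days come from different arrays.

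Tet3 and Tet1 had the smallest p at day 3. Tet3 was 1.15-fold lower in knockdown arrays (log2 fold change −0.20, 95% interval −0.33 to −0.07, unadjusted p = 0.00488, adjusted p = 0.726), and Tet1 was 1.20-fold lower (−0.27, 95% interval −0.45 to −0.09, unadjusted p = 0.00764, adjusted p = 0.726). Tet1, Tet3 and Dnmt3a (−0.12, adjusted p = 0.869) were lower in all 3 knockdown arrays than in any control, which is 3 of 8 genes where 5.59% of all genes did so. None of the 8 was higher without overlap, as 5.21% of all genes were. The difference in Dnmt3a is smaller than the range of its controls, 7.93 to 8.19. Dnmt1 stood at −0.07, Uhrf1 and Dnmt3b at −0.11 each, Dnmt3l at 0.01 and Tet2 at 0.05, with adjusted p from 0.919 to 0.993.

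Dnmt3b and Tet1 had the smallest p at day 6, with the knockdown arrays above the controls. Dnmt3b was 1.20-fold higher (log2 fold change 0.26, 95% interval 0.05 to 0.46, unadjusted p = 0.0176, adjusted p = 0.995), and Tet1 was 1.15-fold higher (0.21, 95% interval 0.02 to 0.39, unadjusted p = 0.0308, adjusted p = 0.999). These were the 2 of 8 genes without overlap in that direction, where 5% of all genes did so, and none was lower without overlap, as 5.57% were. For Tet1 the same-number pairs differed by 0.51, 0.11 and 0.00277, and with the first pair left out the difference was 0.05. Dnmt1 stood at 0.17, Uhrf1 at 0.15, Tet2 at 0.09, Dnmt3l and Tet3 at 0.07 each and Dnmt3a at −0.05, each with an adjusted p of 0.999. In all 3 same-number pairs Dnmt1, Uhrf1 and Tet3 were higher under the Chaf1a hairpin, for Tet3 by 0.03, 0.03 and 0.14. The share of all genes with such pairs was not computed. The mean gene-centred value of 16 pluripotency markers was 0.38 to 0.53 in day 6 knockdown arrays and −0.08 to −0.04 in day 6 controls, and its part in the values of Dnmt3b and Tet1 was not tested.

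**Figure D3:**
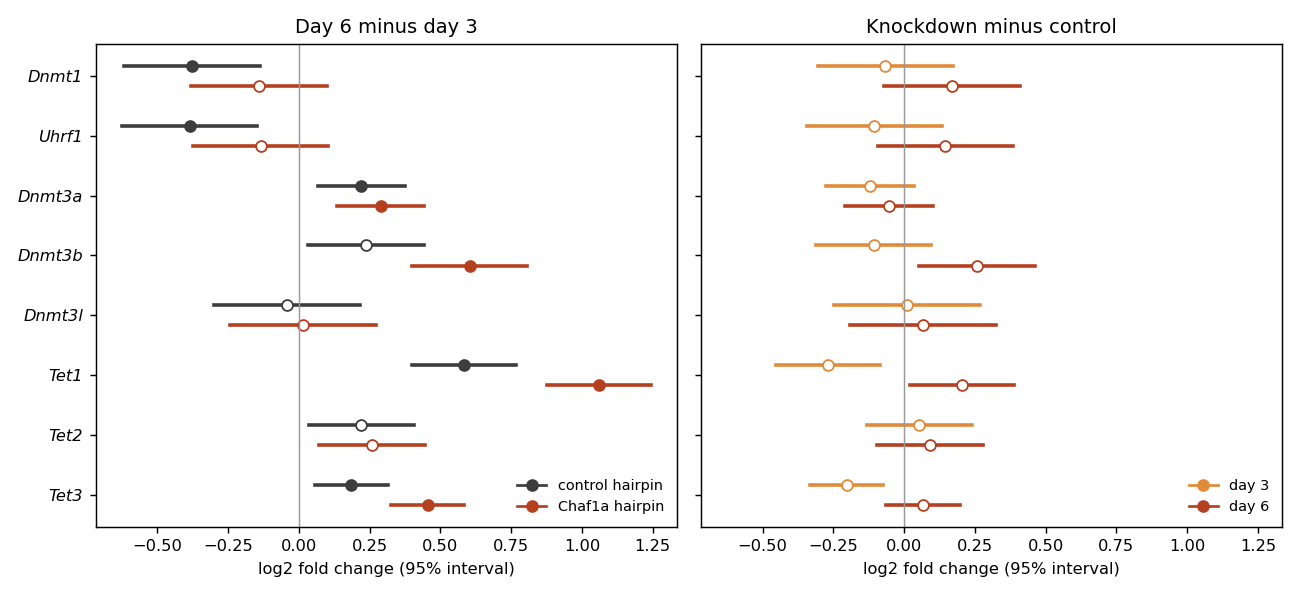
Log2 fold change of the 8 genes with its 95% interval (limma, 3 arrays a group), for day 6 minus day 3 under each hairpin on the left and knockdown minus control on each day on the right. Filled points passed an adjusted p of 0.05 and open points did not: 5 are filled for the control hairpin, 4 for the Chaf1a hairpin and 0 for knockdown minus control.

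The knockdown effect at day 6 was above that at day 3 for all 8 genes, and none of the differences passed, as was so for every one of the 17860 genes (0% called). The median difference of the 8 genes was 0.24, beside 0.002 over all genes. A difference above 0 was not particular to them. It was found for 18 of 18 S phase and mitosis genes and 14 of 16 pluripotency markers, and for 4 of 12 fibroblast markers. At an unadjusted p of 0.05 there were 3 of the 8 genes in limma, beside 5.1% of all genes. The difference was 0.47 for Tet1 (SE 0.12, unadjusted p = 0.00175, adjusted p = 0.918), 0.37 for Dnmt3b (SE 0.13, adjusted p = 0.948) and 0.27 for Tet3 (SE 0.08, unadjusted p = 0.00719, adjusted p = 0.918). Over all alternatives the difference ran from 0.38 to 0.55 for Tet1, 0.17 to 0.50 for Dnmt3b and 0.23 to 0.31 for Tet3. In the main fit it was between 0.04 and 0.25 for the other 5 genes. The same number is the difference between the hairpins' changes with time, so the larger rise of Tet1, Dnmt3b and Tet3 in knockdown cells is not shown beyond the spread once all genes are considered. Averaged over both days, the knockdown effect ran from −0.09 for Dnmt3a to 0.07 for Dnmt3b, with adjusted p of at least 0.931 and 0% of genes called.

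Of 16 cofactors of methylation tested, 0 rose and 2 fell in control cells, where 6.99% and 10.6% of all genes did, and 2 rose and 1 fell in knockdown cells, where 7.46% and 10.5% did, so the shares are near the background. Those that fell in control cells were Hells, a remodeller that helps methylate repeats (log2 fold change −0.38, adjusted p = 0.0133), and Lig1, the ligase of replicating DNA that recruits Uhrf1 (−0.47, adjusted p = 0.0169). In knockdown cells these 2 stood at −0.20 (adjusted p = 0.175) and −0.19 (adjusted p = 0.323). There Nsd1, an H3K36 methyltransferase (0.26, adjusted p = 0.0153), and Trim28, a corepressor that guards methylation at imprinted loci (0.24, adjusted p = 0.0214), rose and Uhrf2, the relative of Uhrf1, fell by 0.17 (adjusted p = 0.0351, and 0.0529 with the replicate block). Both falls in control cells were lost without day 6 control replicate 1, without day 3 control replicate 2 or without replicate 1 of both days, and 1 of them without day 6 control replicate 3 or without replicate 2 or 3 of both days. Both rises in knockdown cells were lost without replicate 2 or 3 of both days, and 1 of them in each other setting that left out arrays except without day 3 knockdown replicate 1. The fall of Uhrf2 was lost in all 9 such settings. The list's median was −0.04 in control and 0.03 in knockdown cells, beside 0.01 over all genes.

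Methyl-CpG binding proteins read the mark, and base excision repair completes the step after Tdg. Of 8 methyl-CpG binding proteins tested, 0 rose and 0 fell under either hairpin, with Mbd2 at −0.02 and Mbd3, a subunit of the NuRD complex, at 0.06 in control cells (adjusted p = 0.874 and 0.557) and at −0.06 and −0.01 in knockdown cells (adjusted p = 0.502 and 0.906). Of 12 base excision repair genes, 0 passed in control cells, and Parp1, the poly(ADP-ribose) polymerase that senses strand breaks, and Neil2, a glycosylase, rose in knockdown cells (0.43 and 0.26, adjusted p = 0.00384 and 0.0274). In control cells they stood at 0.17 and 0.13 (adjusted p = 0.205 and 0.260). These 2 of 12 lie near the share of all genes called in knockdown cells (7.46% higher, 10.5% lower). Parp1 passed in every setting. Neil2 was lost without day 6 knockdown replicate 1 or 2, without day 3 knockdown replicate 3, without replicate 1 or 2 of both days, with a stricter filter and with only the 2 groups compared. With the replicate block 3 genes rose, with Nthl1 added.

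Among 13 Tet partners, cofactors and proposed demethylation factors, 3 rose and 1 fell in control cells (6.99% and 10.6% of all genes). In knockdown cells 4 rose and 1 fell (7.46% and 10.5% of all genes). The list's median was 0.06 in control and −0.01 in knockdown cells, with 9 and 6 of the 13 log2 fold changes above 0. Apobec1, a cytidine deaminase, rose by 1.03 and 0.72 (adjusted p = 9.74e-06 and 8.26e-05). Idh2, which makes the 2-oxoglutarate that Tet enzymes consume, rose by 0.32 under both hairpins (adjusted p = 0.0110 and 0.0111), and Cxxc5, a CXXC protein that binds unmethylated CpG, by 0.26 and 0.34 (adjusted p = 0.0106 and 0.00234). Hmces, which shields abasic sites, fell by 0.35 and 0.21 (adjusted p = 0.00272 and 0.0365), the second not passing with the replicate block (adjusted p = 0.0520). Sall4, a pluripotency factor reported to bind 5-hydroxymethylcytosine, rose by 0.87 in knockdown cells (adjusted p = 3.26e-05) and stood at 0.06 in control cells (adjusted p = 0.713). Sall4 was the only gene of the pathway lists that passed between hairpins, higher by 0.78 in day 6 knockdown arrays (adjusted p = 0.00589), and it also stands in the pluripotency list above. The control count of 3 rises was 1, Apobec1, without replicate 2 of both days. With arrays left out, the fall of Hmces in knockdown cells held only without day 3 knockdown replicate 2 or without replicate 2 of both days.

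The S-adenosylmethionine cycle supplies the methyl group. Of 13 of its genes tested, 0 rose and 5 fell in control cells (6.99% and 10.6% of all genes), and 2 rose and 4 fell in knockdown cells (7.46% and 10.5%), with medians of −0.10 and −0.13. Under each hairpin 4 of the 13 log2 fold changes were above 0. Shmt2, the mitochondrial serine hydroxymethyltransferase, fell by 0.31 and 0.36 (adjusted p = 0.00633 and 0.00256), Mtrr, which reactivates methionine synthase, by 0.41 and 0.44 (adjusted p = 0.0201 and 0.0135), and Ahcy, which removes S-adenosylhomocysteine, by 0.49 and 0.38 (adjusted p = 0.0128 and 0.0417). Mtr, methionine synthase itself, fell by 0.31 in control cells (adjusted p = 0.0242). In knockdown cells Adk, adenosine kinase, fell by 0.32 (adjusted p = 0.0133) and Mat2b, a regulatory subunit of S-adenosylmethionine synthetase, rose by 0.23 (adjusted p = 0.0125). With arrays left out, 1 (without replicate 1 of both days) to 3 genes fell in control cells. In knockdown cells 1 to 4 fell, with Shmt2 alone without day 3 knockdown replicate 1, day 6 knockdown replicate 2, or replicate 2 or 3 of both days, and 0 rose in the last 2 of these settings.

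Germline genes whose promoters are known to be silenced by methylation stayed low for the most part. Of 25 listed, 22 had a probe set and 12 of those were below the filter, among them Dazl, Ddx4, Mael and Sycp1. Of the 10 tested, Dppa4, which embryonic stem cells also express, rose by 0.57 in control cells (adjusted p = 0.0459) and stood at 0.21 in knockdown cells (adjusted p = 0.490). Tex19.1 fell by 0.37 in knockdown cells (adjusted p = 0.0437) and stood at −0.05 in control cells (adjusted p = 0.805). Thus 1 of 10 rose and 0 fell in control cells (6.99% and 10.6% of all genes). In knockdown cells 0 rose and 1 fell (7.46% and 10.5% of all genes). Both calls were lost with no filter. With arrays left out, Dppa4 held only without day 3 control replicate 1 or day 6 control replicate 3, and Tex19.1 only without day 3 knockdown replicate 2 or without replicate 2 of both days. Between hairpins 0 of the 10 passed at either day.

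**Figure D4:**
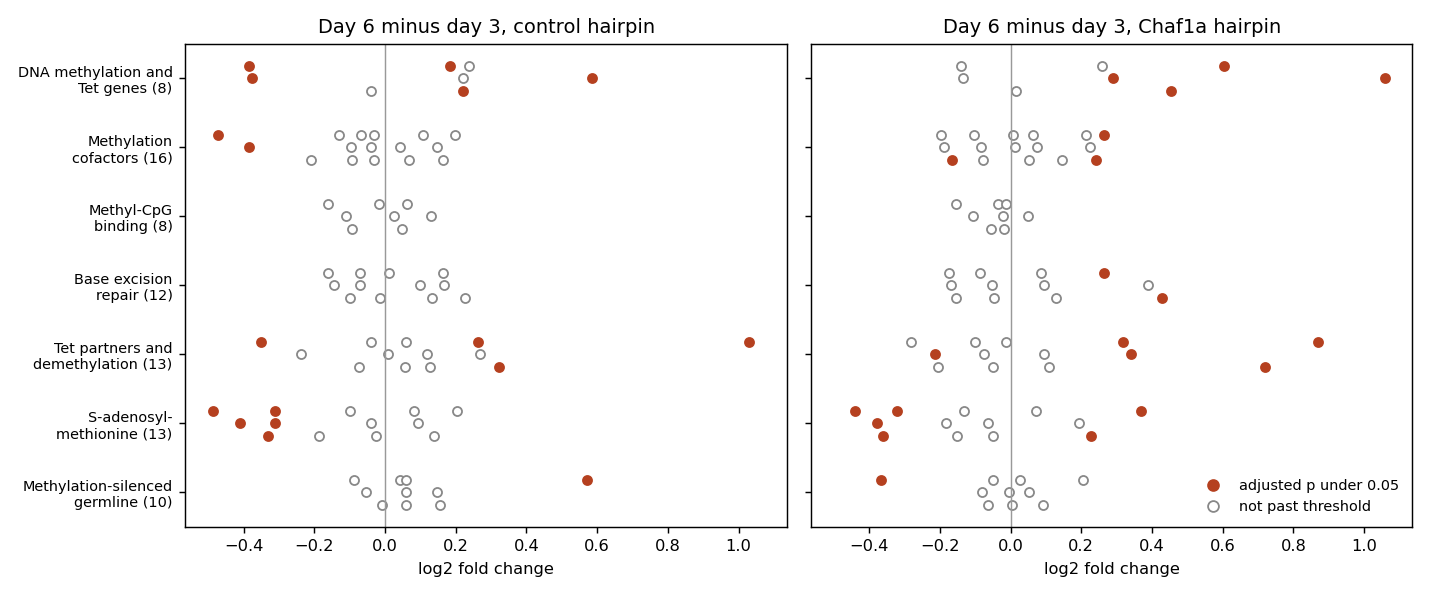
Log2 fold change from day 3 to day 6 of each tested gene of 7 lists (number of genes in brackets), for the control hairpin on the left and the Chaf1a hairpin on the right. Each point is a gene, filled where its adjusted p was under 0.05, and points are offset vertically only to be seen. In the first row, Tet1 is the point farthest right, at 0.59 and 1.06.

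For the 6 genes that passed in at least 1 comparison, the 3 genes with the most similar profile were taken by Pearson's r of the log2 values over the 12 arrays. The 12 arrays fall into 4 groups that all genes share, so r is large for any gene that differs between days in the same way, and it is given as a description. For Tet1 these were Ptprg (0.975), Jmjd1c (0.975) and Kif13a (0.974), and for Tet3 Rsf1 (0.971), Bptf (0.955) and Zfp704 (0.953). For Dnmt3a they were Cdk19 (0.967), Fam3c (0.964) and Ttyh3 (0.961), and for Dnmt3b Mogat2 (0.928), Lemd1 (0.917) and Map7 (0.915). For Uhrf1 they were Cit (0.977), Rad18 (0.975) and Cenpn (0.967), and for Dnmt1 Mcm10 (0.946), Cxadr (0.938) and Haus6 (0.931).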

How the data were processed

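RNA from the 12 samples was hybridised to Affymetrix mouse arrays (100 ng of RNA each, per the labels' protocols). The authors deposited probe set intensities, which the submitters' processing notes credit to RMA and to Affymetrix Expression Console (1.3.0.187). The deposited values, 4.71 to 13421, are on a linear scale, and log2 was taken of them here. For the array, a build is not given in the sources used here. Of 41345 probe sets, 23521 named 1 gene, 1814 several and 16010 none, by GEO's platform annotation. A gene with several was read from the one with the highest mean. A gene was tested if it reached the array's 30th percentile in at least 3 arrays, which left 17860. Comparisons used limma 3.58.1 (R 4.3.3; 1 mean per group over all 12 arrays, 8 residual and 4.37 prior degrees of freedom, two-sided, Benjamini-Hochberg over all genes, threshold 0.05), and the fit was tested on simulated data. A fold or log2 fold change is day 6 minus day 3 or knockdown minus control, and errors are SDs over 3 arrays or SEs of the fit. Groups share replicate numbers: after removing group means, same-number arrays of the groups compared correlated at 0.14 to 0.37 over genes in all 12 pairs, so the numbers pair the arrays, and a fit with the number as a block was an alternative. The other alternatives were no filter and a stricter filter, the mean of or all probe sets of a gene, renewed quantile normalization, array weights, a variance trend, only the groups compared, and leaving out arrays. The 9 genes and all lists were chosen with earlier results of these data known. Other pathway genes named are up to 4 per list and comparison with the smallest p among those that passed, or, where fewer than 2 passed in all comparisons, the 2 with the highest mean. Rrm2, Nthl1 and the other cell type markers named fall outside that rule and were chosen after their values were seen. Sequences were matched by symbol to RefSeq promoters of GRCm38.p6. Plots used Python 3.11.15 and matplotlib 3.10.9. The number of arrays limits the precision.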

Additional observations from a re-analysis of the deposited data

Results flagged for a closer look

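For 2 genes all 3 same-number pairs of arrays moved one way between hairpins at day 3 and the other way at day 6. The share of all genes that did so was not computed, so the count is only a description. For Tet1 the knockdown array differed from its control by −0.15, −0.33 and −0.32 at day 3 and by 0.51, 0.11 and 0.00277 at day 6, and the difference between the effects was 0.474 (limma, unadjusted p = 0.00175, adjusted p = 0.918). For Tet3 the pairs differed by −0.24, −0.30 and −0.07 at day 3 and by 0.03, 0.03 and 0.14 at day 6, and the difference was 0.27 (limma, unadjusted p = 0.00719, adjusted p = 0.918). Neither passed over all genes.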

How the results depend on the processing

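Of the 8 genes, 5 passed for day 6 against day 3 in control cells, and that count was 3 with no filter, 3 with every probe set tested and 1 to 3 with arrays left out. With the replicate block it was 4, losing Tet3, and the block changed no other call of the 8 genes. The count in knockdown cells was 4, and 3 to 5 with arrays left out, and 0 passed between hairpins in any setting. Some values that did not pass turned sign with arrays left out, among them that of Dnmt3b at day 3, −0.11 with all arrays. Dnmt3l ran from −0.059 to 0.067 (knockdown at day 3), −0.13 to 0.18 (day 6), −0.17 to 0.24 (their difference), −0.046 to 0.10 (their mean), −0.18 to 0.18 (time in control) and −0.040 to 0.057 (time in knockdown), and at day 3 it was −0.0058 with renewed quantile normalization and −0.026 with array weights. Dnmt3b ran from −0.19 to 0.013 at day 3, Tet2 from −0.019 to 0.18 at day 6 and −0.043 to 0.12 in the difference, Dnmt3a from −0.047 to 0.15 in the difference, Uhrf1 from −0.23 to 0.034 with time in knockdown and −0.041 to 0.071 in the mean, and Tet1 from −0.14 to 0.032 in the mean. Apart from fewer arrays or more genes tested, the cause was not tested. Counts over the pathway and S phase lists were recomputed after seeing the data. Dnmt3l lay below every array's median, which limits what its values can show.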
